A study of Mus musculus with 18 samples.

Results

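The genes described here form the core machinery of macroautophagy, together with the transcription factors Tfeb and Tfe3. They were chosen by symbol from the deposited tables. The choice took symbols beginning with Atg and a digit, Map1lc3 or Gabarap, the kinases Ulk1 and Ulk2, Wipi1 and Wipi2, and a set of named partners (Becn1, Pik3c3, Pik3r4, Rb1cc1, Uvrag, Ambra1, Vmp1, Wdr45, Wdr45b, Sqstm1, Nbr1, Optn, Tax1bp1, Tfeb, Tfe3). This gave 43 genes among 15307 features with reads, and all 43 were tested in all 9 comparisons. Ulk3 was not analysed here. The pseudogene Atg4a-ps is counted among the 43, and because it is a near copy of Atg4a, the reads of both are uncertain.

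The cells were GTML, a line from a mouse medulloblastoma in which the Glt1 promoter switches on a human MYCN transgene and luciferase in neural progenitors of the hindbrain. All groups carry this transgene, and no cells without it were measured. Each of the 3 treatments lasted 3 h and had 3 replicates: the solvent DMSO as control, rapamycin at 5 nM, and Rapalink-1 at 50 nM. Rapalink-1 joins a rapamycin-like part to an inhibitor of the ATP site of mTOR and blocks both translation arms below mTORC1, whereas rapamycin is allosteric and blocks the S6 kinase arm. Each replicate gave a library of ribosome-protected fragments (footprints) and a library of total RNA. The labels do not say whether replicates were separate cultures, so p-values measure only the spread between these samples, which may be technical.

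In autophagy a cup of membrane grows around cytoplasm, closes and fuses with the lysosome. The ULK kinase complex starts this process and is held inactive by mTORC1, the class III phosphatidylinositol 3-kinase complex then marks the membrane with lipid, and ATG9 vesicles with the lipid transfer protein ATG2 enlarge it. A pair of ubiquitin-like conjugation systems attaches proteins of the ATG8 family (LC3 and GABARAP) to the membrane, where receptors such as SQSTM1 and NBR1 tether cargo. TFEB and TFE3, which mTORC1 holds in the cytoplasm, bind E-boxes in front of lysosomal and autophagy genes. Messenger RNAs whose 5′ end is a C followed by a run of pyrimidines (TOP mRNAs, such as those of ribosomal proteins) are the class whose translation is known to be most sensitive to mTOR.

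The first bases of a transcript are therefore shown for the 5 members whose translational efficiency (footprints relative to RNA, defined below) was called lower with Rapalink-1, and for the 5 with the largest called rise among members with a single start in the table used. The sequences are from RefSeq, build GRCm38.p6, 5′ to 3′ on the strand of the gene, with the 20 bases from the annotated start in capitals after the 10 bases before it. The start used in these cells was not measured. For Atg7, the annotated gene begins at chr6:114643127, so the start shown lies inside the gene and not at its 5′ end. The same holds, over shorter distances, for several genes on the minus strand. The annotated 5′ ends of Atg10 (chr13:91224725), Ulk2 (chr11:61855334), Atg16l2 (chr7:101302267), Atg2b (chr12:105685297) and Ulk1 (chr5:110810120) lie outside the windows shown. That of Atg13 (chr2:91710597) lies a few bases before the start shown.
Atg7, lower efficiency, chr6:114671086-114671115, plus strand: ttttcctttgGCGCAGACAGCATTAGGATT
Atg16l2, lower efficiency, chr7:101302069-101302098, minus strand: tggagtccccGGGAGGCTCCGCCCCCCTGC
Atg10, lower efficiency, chr13:91223968-91223997, minus strand: gtccctccccGCTCCGCCCCGTGCGCGCCG
Gabarap, lower efficiency, chr11:69991360-69991389, plus strand: gtttcgtcctCAACTTTGTACTGTGGGAAA
Sqstm1, lower efficiency, chr11:50210801-50210830, minus strand: cccgttttctATAAAAGCTGGGCTCTCGGC
Ulk2, higher efficiency, chr11:61855073-61855102, minus strand: gcacagggccGGTAGTCGGCGCGGAGCGGC
Ulk1, higher efficiency, chr5:110810062-110810091, minus strand: acctcgggctCCGAGGCCCGGGTGCCGCGG
Atg13, higher efficiency, chr2:91710573-91710602, minus strand: taggcagctgCATTTCCTCCGTAGCGCTCT
Atg2b, higher efficiency, chr12:105685222-105685251, minus strand: tgggtctcgcGAACGCGCCAGGAGCGTGTC
Pik3r4, higher efficiency, chr9:105642985-105643014, plus strand: ggtcaacccgGAGGCTTTCCCGGGAGTTCA
No start among the 44 promoters of the 35 members with an entry, in either set of windows above or elsewhere, was a C followed by at least 4 pyrimidines. Such a start was annotated for 2.51% of all 32851 promoters and for 17.81% of the 73 promoters of ribosomal protein genes, so an annotated start often misses the pattern even where it is known.

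The E-box CACGTG, which reads the same on both strands, was looked for in the 300 bases around each start, from 250 before it to 50 after. It lay in the promoters of 4 of the 35 members with an entry (11.4%) and in those of 8.09% of all 27025 genes. These 4 genes are Atg14, Atg3, Atg5 and Atg7, and their sites are shown with the E-box in capitals, so that they can be set beside the RNA values of the same genes further on.
Atg14, first E-box base 1 before the start, chr14:47568418-47568447, minus strand: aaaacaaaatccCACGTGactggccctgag
Atg3, 94 before the start, chr16:45158723-45158752, plus strand: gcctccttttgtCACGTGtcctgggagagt
Atg3, 71 before the start, chr16:45158746-45158775, plus strand: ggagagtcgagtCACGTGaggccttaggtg
Atg5, 14 before the start, chr10:44268313-44268342, plus strand: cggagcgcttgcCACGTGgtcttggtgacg
Atg7, 132 before the start, chr6:114670952-114670981, plus strand: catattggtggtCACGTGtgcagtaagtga
The longer palindrome TCACGTGA, which contains the E-box, was found for Atg3 alone, and GTAAACA, a core of the motif of FoxO factors searched on both strands, for no member. They were found for 1.12% and 4.05% of all genes. A match here is a string of letters, not a measured binding site. The site of Atg7 was found around the start shown above, which lies inside the annotated gene. That of Atg5 also lies just inside its annotated gene, which begins at chr10:44268322.

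Sequencing depth was 7692625 to 14150068 reads per footprint library and 6788365 to 13300292 reads per RNA library. Levels are given as CPM (counts relative to the library total, after scaling with TMM factors). The levels of cell type markers are the exception, being relative to the library total without TMM factors. The names of the DMSO and Rapalink-1 footprint libraries carry a letter B that those of rapamycin lack, and its meaning is not given in the sources used here, so whatever it stands for cannot be told apart from the drug. No spike-in is stated, so every change is relative to the typical gene of the same libraries. Markers of cell types were looked up by symbol among the 15307 features with reads, of which 9787 carried a symbol. A marker that was not found may therefore still have had reads. Of 12 marker genes of neural progenitors and granule neurons, 8 were found (Nes, Vim, Pax6, Zic1, Zic2, Neurod1, Tubb3, Slc1a3). Their summed RNA level was 637 to 644 CPM with DMSO, 687 to 720 with Rapalink-1 and 674 to 693 with rapamycin. Sox2, Sox9, Atoh1 and Dcx were not analysed here. Of markers of other cells, 1 of 6 for oligodendrocytes (Cnp), 2 of 8 for microglia and blood (Itgam, Hbb-bs) and 1 of 7 for vessels and fibroblasts (Acta2) were found. The summed RNA level of the microglia and blood genes was 105 to 148 CPM with DMSO, 98.8 to 109 with Rapalink-1 and 107 to 122 with rapamycin. In footprints it was 52.1 to 78.3, 26 to 29 and 58.1 to 73.2 CPM, a difference that came from Itgam. Cnp RNA was 7.7 to 10.6 CPM with DMSO, 11.6 to 15.4 with Rapalink-1 and 11.6 to 12 with rapamycin. Acta2 RNA was 31.8 to 41.8, 35.6 to 38.4 and 31.8 to 36 CPM in the same order. Acta2 footprints were 259 to 297, 268 to 285 and 233 to 264 CPM. Under TMM scaling they were called lower with both drugs (log2 change -0.27 with Rapalink-1 and -0.23 with rapamycin). Whether these shifts had a part in the changes of the autophagy genes was not tested. As in any bulk sample, fewer cells of a type and less RNA per cell cannot be told apart.

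The autophagy genes changed in both directions after 3 h, more of them upwards, and in the ULK complex 5 of 5 genes rose in footprints with Rapalink-1 and 4 of 5 with rapamycin. A gene was called when its adjusted p was under 0.05 (edgeR quasi-likelihood test, Benjamini-Hochberg over all genes of a comparison). In RNA, Rapalink-1 raised 16 and lowered 7 of the 43, against 19.4% of all 11271 genes called higher and 18.8% called lower. Rapamycin raised 13 and lowered 2 in RNA (background 13.6% higher and 10.5% lower). In footprints, Rapalink-1 raised 17 and lowered 10 (background 25.7% and 28.0% of 11281 genes), and rapamycin raised 14 and lowered 3 (background 8.75% and 9.40%). In either direction, the share of members called was 53.5% against 38.2% in RNA and 62.8% against 53.7% in footprints for Rapalink-1. For rapamycin it was 34.9% against 24.1% in RNA and 39.5% against 18.1% in footprints. The members' median log2 change was 0.06 in RNA and 0.13 in footprints with Rapalink-1, and 0.15 and 0.11 with rapamycin, where the medians of all genes lay between 0 and 0.01.

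Translational efficiency is the change in footprints beyond the change in RNA, tested as the interaction of assay and treatment over all 18 libraries. With Rapalink-1 it was called higher for 12 and lower for 5 members (background 22.3% and 19.9% of 10988 genes), so the 39.5% of members called is near the 42.2% of all genes. With rapamycin it was higher for 1 and lower for 5 (background 6.52% and 9.85%), 14% of members against 16.4% of genes. Scaling by library totals in place of TMM moved the median of all genes in the Rapalink-1 comparison with DMSO from 0 to -0.13 in RNA, from 0.01 to 0.28 in footprints and from 0.06 to 0.43 in efficiency. The split of calls then became 11 higher and 13 lower in RNA, 23 and 2 in footprints, and 26 and 1 in efficiency, where Atg7 was the remaining fall. For rapamycin the efficiency split became 1 and 1 (Becn1 and Atg14).

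**Figure D1:**
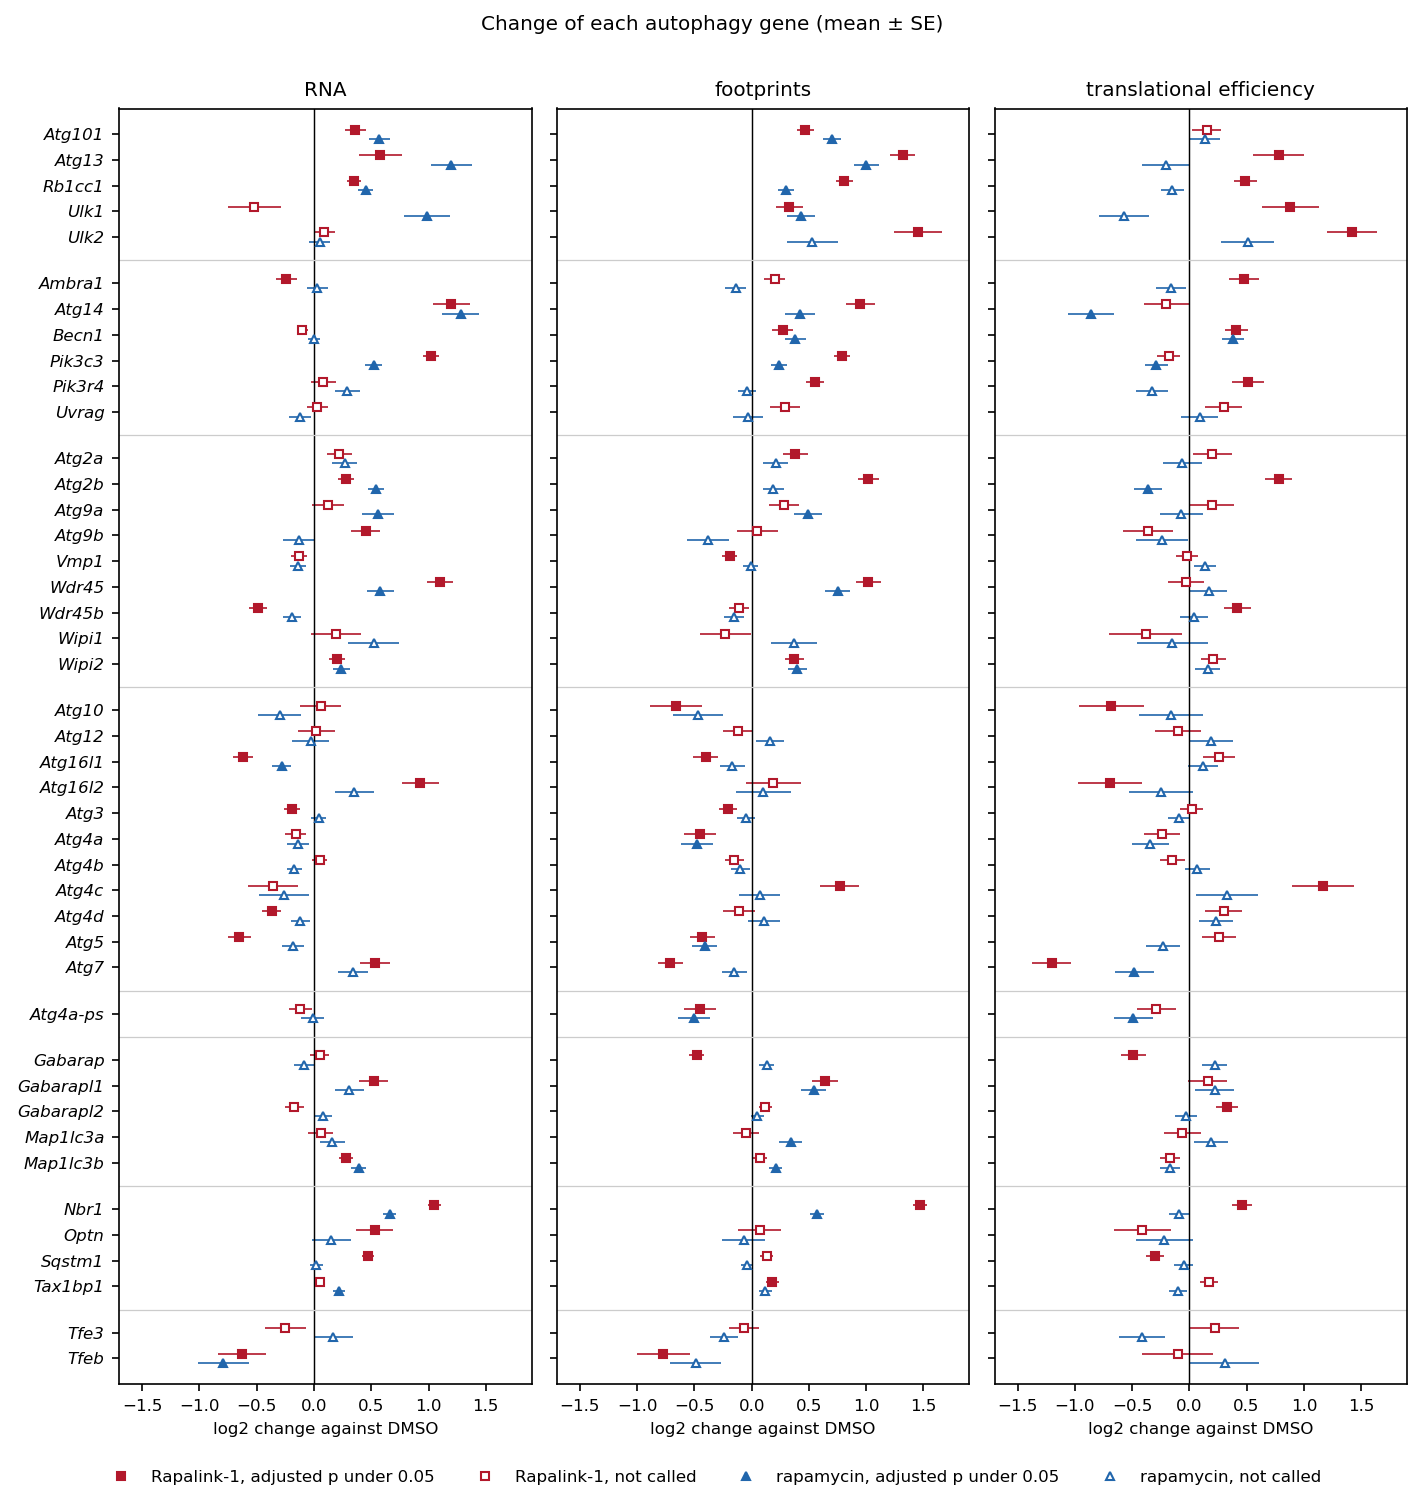
Log2 change against DMSO (mean ± SE, n = 3 per group) of each of the 43 genes in RNA, footprints and translational efficiency, with rows grouped by role from the ULK complex at the top to the transcription factors at the bottom. Squares are Rapalink-1 and triangles rapamycin, filled where the adjusted p was under 0.05. All 5 ULK complex genes have filled squares to the right of 0 in footprints, while 6 of 11 conjugation genes have filled squares to the left.

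The ULK complex consists of the kinases Ulk1 and Ulk2, the adaptors Atg13 and Atg101, and the scaffold Rb1cc1 (FIP200). Footprints rose for all 5 with Rapalink-1 and for 4 of 5 with rapamycin, Ulk2 being the exception (0.53 ± 0.22, log2 ± SE, adjusted p = 0.091). Ulk2 was called higher with rapamycin when DMSO replicate 2 (0.86, adjusted p = 0.0092) or rapamycin replicate 2 (0.67, 0.046) was left out. The authors' deposited table also called it higher (0.55), so this exception is borderline. Efficiency rose for 4 of 5 with Rapalink-1 and for none with rapamycin. All genes were called higher at 25.7% and 8.75% in footprints and 22.3% and 6.52% in efficiency. Under library totals the counts of the complex were 5, 4, 5 and 0, and in RNA the split moved from 3 higher and 0 lower to 2 and 1 with Rapalink-1.

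Atg13 footprints were 12, 12.9 and 16.2 CPM with DMSO, 35.1, 32.6 and 34.5 with Rapalink-1, and 27.5, 28.3 and 26.1 with rapamycin. The groups did not overlap, with DMSO lowest and Rapalink-1 highest. Its RNA was 5.2, 3.83 and 7.7 CPM with DMSO, 7.91, 7.51 and 8.62 with Rapalink-1, and 13.3, 11 and 12.9 with rapamycin. The RNA was thus highest with rapamycin and the footprints highest with Rapalink-1. Footprints rose by 1.32 ± 0.11 (adjusted p = 5.8e-13) with Rapalink-1 and by 1.00 ± 0.11 (1.1e-08) with rapamycin. RNA rose by 0.58 ± 0.19 (0.013) and 1.20 ± 0.18 (1.8e-06). Efficiency rose by 0.78 ± 0.22 (0.0035) with Rapalink-1. With rapamycin the efficiency change was -0.20 ± 0.21 (0.59). The RNA call with Rapalink-1 was lost without DMSO replicate 1 (adjusted p = 0.051), DMSO replicate 2 (change 0.36, adjusted p = 0.15) or Rapalink-1 replicate 3 (adjusted p = 0.055), and under library totals (0.44, adjusted p = 0.054).

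Ulk2 RNA overlapped between groups, at 33.5, 33.8 and 31.4 CPM with DMSO, 30.9, 39.5 and 35.3 with Rapalink-1, and 31.9, 33 and 37.6 with rapamycin. Its footprints were 3.4, 6.73 and 3.46 CPM with DMSO, 11.9, 10.4 and 13 with Rapalink-1, and 6.56, 4.9 and 7.18 with rapamycin. All Rapalink-1 libraries were above all others, while the rapamycin and DMSO libraries overlapped. Rapalink-1 raised Ulk2 footprints by 1.45 ± 0.21 (adjusted p = 2.3e-07) and efficiency by 1.42 ± 0.22 (4.1e-07).

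Ulk1 went the other way in RNA under the 2 drugs. Its RNA was 4.22, 3.83 and 5.56 CPM with DMSO, 3.07, 3.58 and 2.6 with Rapalink-1, and 9.87, 9.03 and 7.58 with rapamycin. These rest on 29 to 113 reads per library, which limits their precision. With rapamycin the RNA rose by 0.99 ± 0.20 (adjusted p = 0.00016). With Rapalink-1 its change was -0.52 ± 0.23 (0.067), below every DMSO library but not called. It was called lower under library totals (-0.66, adjusted p = 0.017) and without DMSO replicate 2 (-0.63, 0.045). The authors' deposited table also called Ulk1 RNA lower (-0.55). Ulk1 footprints were 14.9, 19.3 and 16.7 CPM with DMSO, 22.4, 21.9 and 18.4 with Rapalink-1, and 22.3, 21.3 and 23.7 with rapamycin. The rise in footprints was 0.33 ± 0.12 (0.021) with Rapalink-1 and 0.43 ± 0.12 (0.0088) with rapamycin. The Rapalink-1 call was lost without DMSO replicate 1 (adjusted p = 0.16), Rapalink-1 replicate 1 (0.11) or Rapalink-1 replicate 2 (0.07), and the rapamycin call without DMSO replicate 1 (0.098). Efficiency of Ulk1 rose by 0.88 ± 0.25 (0.0033) with Rapalink-1.

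Rb1cc1 footprints were 56.4, 49.9 and 55.2 CPM with DMSO, 97.7, 95.8 and 89.9 with Rapalink-1, and 63.6, 64.3 and 71.6 with rapamycin, with no overlap between any groups. The rise was 0.81 ± 0.072 (adjusted p = 2.7e-12) with Rapalink-1 and 0.30 ± 0.073 (0.0029) with rapamycin. Its RNA was 89.8, 79.2 and 95.5 CPM with DMSO, 113, 119 and 105 with Rapalink-1, and 115, 120 and 125 with rapamycin, again with DMSO below both drugs. In RNA the scaffold rose by 0.35 ± 0.065 (2.3e-05) and 0.45 ± 0.065 (8.3e-07). Atg101, the partner of Atg13, had higher footprints with rapamycin than with Rapalink-1 under TMM scaling. They were 45.8, 51.9 and 47.2 CPM with DMSO, 61.1, 73.1 and 66.2 with Rapalink-1, and 82.1, 78.9 and 73.5 with rapamycin. Atg101 RNA was 35.7, 45.3 and 30.8 CPM with DMSO, 47.8, 50.2 and 48 with Rapalink-1, and 60.8, 54.9 and 52.2 with rapamycin. The footprint rises were 0.47 ± 0.078 (2.9e-06) and 0.70 ± 0.076 (5.1e-09), with RNA rises of 0.36 ± 0.092 (0.0019) and 0.57 ± 0.092 (1.5e-05). The direct difference between the drugs in Atg101 footprints was -0.23 ± 0.074 (0.0079), a call lost without Rapalink-1 replicate 1 (adjusted p = 0.096), without rapamycin replicate 1 (0.053) and under library totals (-0.01, adjusted p = 0.92).

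**Figure D2:**
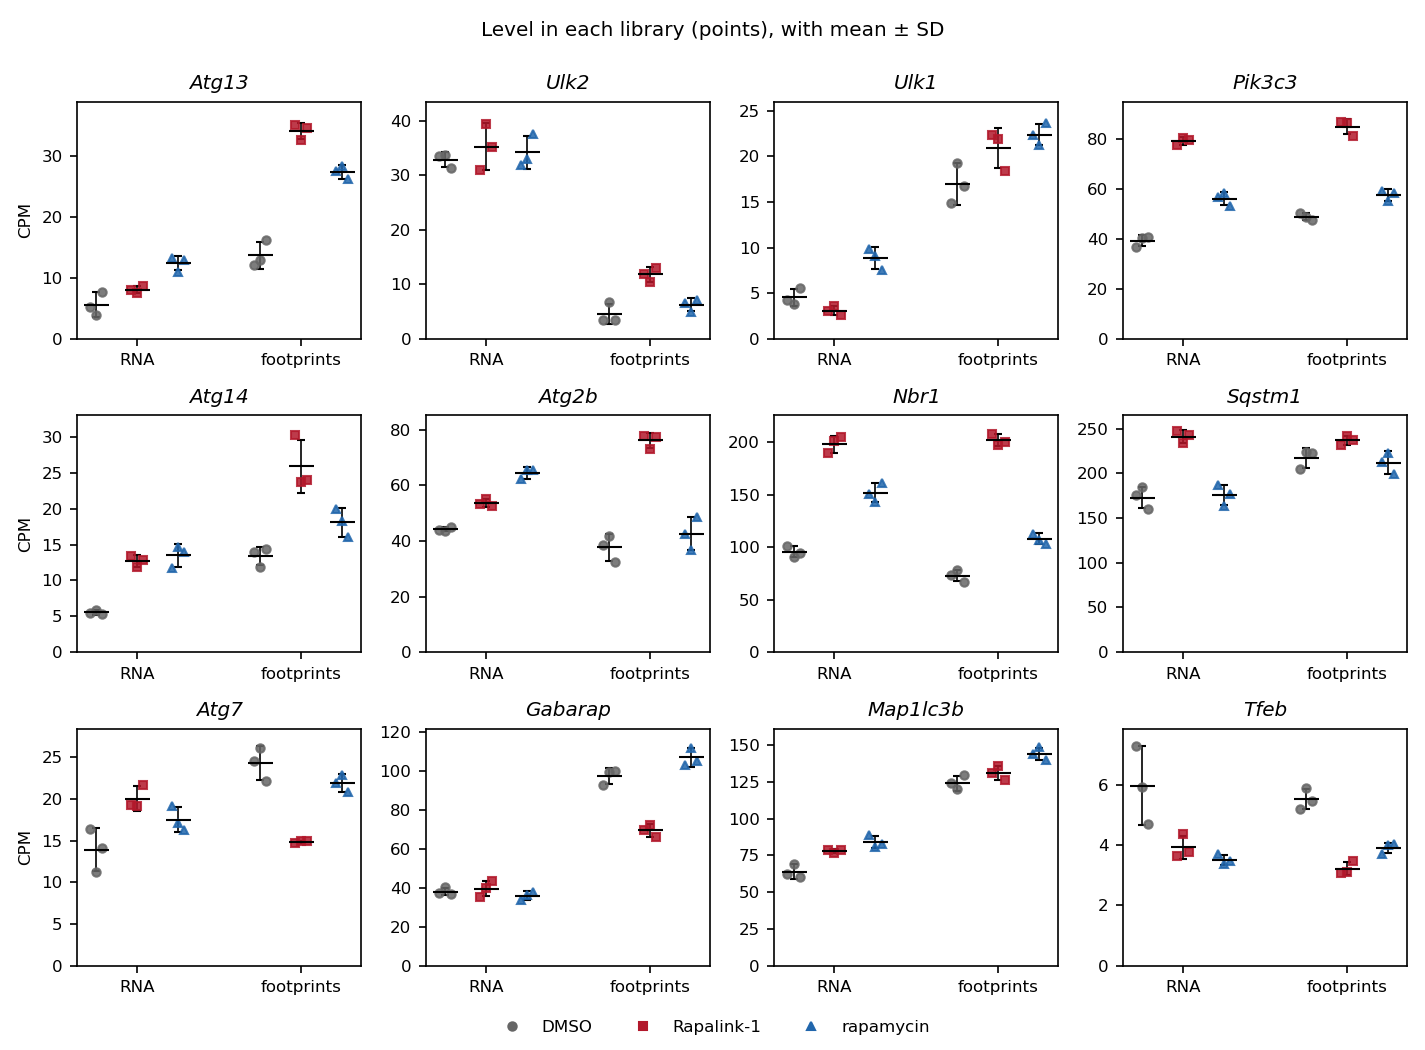
CPM of 12 genes in every RNA and footprint library (points), with the mean ± SD of each group of 3, on axes that start at 0. Ulk2 differs between groups in footprints only, Atg7 moves up in RNA and down in footprints with Rapalink-1, and Ulk1 RNA is highest with rapamycin.

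Of the 6 genes of the class III kinase group, Rapalink-1 raised 4 in footprints and rapamycin 3, and neither lowered any. The share called in either direction was 66.7% against 53.7% of all genes with Rapalink-1 and 50% against 18.1% with rapamycin. Under library totals Rapalink-1 raised all 6. The catalytic subunit Pik3c3 (VPS34) rose in RNA and footprints with both drugs. Its RNA was 36.6, 40.3 and 40.6 CPM with DMSO, 77.4, 80.5 and 79.4 with Rapalink-1, and 56.8, 58.4 and 53.2 with rapamycin. Its footprints were 50.3, 48.8 and 47.5, then 86.6, 86.5 and 81.3, then 59.3, 55 and 58.5 CPM. In both assays rapamycin lay between DMSO and Rapalink-1 without overlap. RNA rose by 1.02 ± 0.070 (adjusted p = 6.8e-16) with Rapalink-1 and by 0.52 ± 0.073 (3.2e-07) with rapamycin. The footprint rises were 0.79 ± 0.071 (2.5e-12) and 0.24 ± 0.072 (0.017). The rapamycin footprint call was lost without DMSO replicate 3 (adjusted p = 0.056), rapamycin replicate 1 (0.076) or rapamycin replicate 3 (0.052). With rapamycin, efficiency fell by 0.29 ± 0.10 (0.047), a call lost without replicate 1 or 2 of DMSO (adjusted p = 0.27 and 0.061) or of rapamycin (0.084 and 0.23), and with a block that pairs the RNA and footprints of a dish (0.056).

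Atg14, the subunit that directs the complex to the site of autophagosome formation, rose in RNA with both drugs. Its RNA was 5.47, 5.84 and 5.27 CPM with DMSO, 13.4, 11.9 and 12.9 with Rapalink-1, and 11.7, 14.7 and 13.9 with rapamycin. The drugs overlapped with each other and not with DMSO, and the rises were 1.20 ± 0.16 (adjusted p = 3.5e-08) and 1.28 ± 0.16 (2.3e-08). Footprints were 13.9, 11.9 and 14.4 CPM with DMSO, 30.2, 23.7 and 24 with Rapalink-1, and 19.9, 18.3 and 16 with rapamycin. They rose by 0.95 ± 0.13 (3.6e-08) with Rapalink-1 but by only 0.42 ± 0.13 (0.018) with rapamycin, the latter lost without DMSO replicate 2 (adjusted p = 0.087) or rapamycin replicate 1 (0.11). Efficiency of Atg14 fell by 0.86 ± 0.20 (0.0019) with rapamycin, the smallest p of any member in that comparison. With Rapalink-1 its efficiency change was -0.20 ± 0.20 (0.45).

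Becn1, the regulatory subunit bound by BCL2 proteins, had RNA of 187, 192 and 182 CPM with DMSO, 176, 173 and 176 with Rapalink-1, and 191, 184 and 188 with rapamycin. The RNA was slightly lower with Rapalink-1, a change of -0.10 (adjusted p = 0.12) that did not pass the threshold. Its footprints were 36.1, 27.2 and 34.9 CPM with DMSO, 37.2, 41.5 and 41.8 with Rapalink-1, and 44.4, 43.5 and 41.4 with rapamycin. Both drugs lay above all DMSO libraries, by 0.27 ± 0.093 (adjusted p = 0.013) and 0.38 ± 0.091 (0.0025). Efficiency rose by 0.41 ± 0.099 (0.00062) and 0.38 ± 0.097 (0.0042). DMSO replicate 2 was the lowest, and without it the footprint change with Rapalink-1 was 0.17 (adjusted p = 0.13) and the efficiency change with rapamycin 0.26 (0.064). The footprint call with Rapalink-1 was also lost without Rapalink-1 replicate 3 (adjusted p = 0.054). The locus of Becn1 overlaps that of Cntd1 by 444 bases, and whether counting used strand is not given in the sources used here.

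Pik3r4 (VPS15), the partner of the catalytic subunit, rose in footprints with Rapalink-1 by 0.55 ± 0.078 (adjusted p = 1.8e-07) and in efficiency by 0.51 ± 0.14 (0.0022), while its RNA change was 0.08 ± 0.11 (0.63). Ambra1, a scaffold of Becn1, fell in RNA by 0.24 ± 0.090 (0.031) and rose in efficiency by 0.48 ± 0.13 (0.0017) with Rapalink-1. The RNA call of Ambra1 was lost without DMSO replicate 1 (adjusted p = 0.14), DMSO replicate 2 (0.071), Rapalink-1 replicate 1 (0.053) or Rapalink-1 replicate 3 (0.13). Uvrag, which replaces Atg14 in a second form of the complex, was called in no comparison with DMSO.

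Among the 9 genes of ATG9, lipid transfer and the PROPPIN lipid-binding proteins, Rapalink-1 raised 4 and lowered 1 in RNA and in footprints, and rapamycin raised 4 in RNA and 3 in footprints. The share called with Rapalink-1 was 55.6% in both assays, against 38.2% of all genes in RNA and 53.7% in footprints, near the background in footprints. With rapamycin it was 44.4% against 24.1% in RNA and 33.3% against 18.1% in footprints. Under library totals the Rapalink-1 split was 1 and 2 in RNA and 5 and 0 in footprints. Wdr45, a PROPPIN mutated in a neurodegeneration with brain iron accumulation, rose in all 4 of these comparisons. Its RNA was 11.5, 14.6 and 14.7 CPM with DMSO, 31.3, 28.2 and 27.1 with Rapalink-1, and 19.1, 21.3 and 19.9 with rapamycin. Its footprints were 12.8, 16 and 15.4, then 27.9, 30.4 and 30.5, then 24.9, 24.2 and 24.1 CPM. The 3 groups were separate in both assays. The RNA rises were 1.10 ± 0.11 (adjusted p = 1.4e-10) with Rapalink-1 and 0.58 ± 0.12 (0.00028) with rapamycin, and the footprint rises 1.02 ± 0.11 (4.8e-10) and 0.75 ± 0.11 (4e-06). Its paralogue Wdr45b did the reverse in RNA with Rapalink-1, falling by 0.49 ± 0.078 (1.7e-06).

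Atg2b, which moves lipid from the endoplasmic reticulum into the growing membrane, differed between drugs in a different way. Its RNA was 44.1, 43.7 and 45 CPM with DMSO, 53.3, 55.2 and 52.5 with Rapalink-1, and 62.2, 65.7 and 65.5 with rapamycin. Its footprints were 38.6, 41.9 and 32.5 CPM with DMSO, 77.9, 73.1 and 77.5 with Rapalink-1, and 42.4, 36.8 and 48.6 with rapamycin. RNA was therefore highest with rapamycin, whereas footprints were high only in the Rapalink-1 libraries. Footprints rose by 1.02 ± 0.090 (adjusted p = 3.4e-12) with Rapalink-1, against a change of 0.19 ± 0.093 (0.17) with rapamycin. Efficiency rose by 0.78 ± 0.12 (1.8e-07) with Rapalink-1 and fell by 0.36 ± 0.12 (0.030) with rapamycin, the fall being lost without replicate 1 or 2 of DMSO (adjusted p = 0.13 and 0.16) or of rapamycin (0.057 and 0.22). RNA rose by 0.28 ± 0.071 (0.0014), which library totals took to 0.14 (adjusted p = 0.1), and by 0.54 ± 0.070 (6.8e-08).

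Of the others, the scramblase Atg9a rose with rapamycin in RNA (0.56 ± 0.14, adjusted p = 0.0024) and footprints (0.49 ± 0.12, 0.0039). Wipi2, which recruits the conjugation machinery, rose in footprints with both drugs (0.37 ± 0.083 and 0.40 ± 0.081, adjusted p = 0.00021 and 0.00033). Its RNA rises of 0.20 ± 0.072 and 0.24 ± 0.072 (0.021 and 0.011) were lost without DMSO replicate 3 (adjusted p = 0.18 and 0.096). The first was also lost without Rapalink-1 replicate 1 or 3 (adjusted p = 0.053 and 0.087), by the DESeq2 Wald test (just above the threshold) and under library totals (0.07, adjusted p = 0.47), and the second without rapamycin replicate 2 (adjusted p = 0.075). Wipi1 was called in no comparison with DMSO.

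Among the 11 conjugation genes falls outnumbered rises with Rapalink-1 under TMM scaling. With Rapalink-1, 2 rose and 4 fell in RNA, and 1 rose and 6 fell in footprints, a split that library totals turned into 1 and 1. With rapamycin none rose, while 1 fell in RNA and 2 in footprints. The share called with Rapalink-1 was 54.5% against 38.2% of all genes in RNA and 63.6% against 53.7% in footprints. With rapamycin it was 9.09% against 24.1% in RNA and 18.2% against 18.1% in footprints. Efficiency with Rapalink-1 rose for 1 and fell for 3 (36.4% called against 42.2%), which library totals turned into 5 and 1.

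Atg7, the E1-like enzyme that activates both ATG12 and the ATG8 proteins, was the single member called higher in RNA and lower in footprints. Its RNA was 16.4, 11.2 and 14.1 CPM with DMSO, 19.3, 19.1 and 21.7 with Rapalink-1, and 19.1, 17.1 and 16.3 with rapamycin. Its footprints were 24.6, 26.1 and 22.2 CPM with DMSO, 14.7, 14.9 and 15 with Rapalink-1, and 21.9, 22.9 and 20.8 with rapamycin. The Rapalink-1 footprint libraries were nearly equal to each other and below all others. RNA rose by 0.53 ± 0.13 (adjusted p = 0.00079), footprints fell by 0.71 ± 0.11 (1.7e-06) and efficiency fell by 1.20 ± 0.17 (8.2e-08), the largest fall and smallest p in efficiency among the members. The footprint and efficiency falls remained called under library totals, at -0.43 and -0.83. With rapamycin efficiency fell by 0.48 ± 0.17 (0.041), lost without DMSO replicate 2 (change -0.28, adjusted p = 0.34) or rapamycin replicate 1 (0.16), 2 (0.064) or 3 (0.077). Parts of the locus are shared with the lncRNA Gm52917 on the opposite strand and a pseudogene.

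Atg5 and Atg16l1, which form the E3-like complex with ATG12, both fell in RNA and footprints with Rapalink-1. Atg5 RNA was 39.1, 43.3 and 41.8 CPM with DMSO, 27.4, 28.8 and 23.1 with Rapalink-1, and 33.4, 42.8 and 33.1 with rapamycin. The Rapalink-1 libraries were below all others, and the fall was 0.65 ± 0.097 (adjusted p = 8.7e-07). Atg5 footprints fell with both drugs, by 0.43 ± 0.11 (0.0010) and 0.41 ± 0.11 (0.0055), the former reduced to -0.16 (adjusted p = 0.22) by library totals. Atg16l1 RNA fell by 0.62 ± 0.085 (9.4e-08) with Rapalink-1 and by 0.28 ± 0.083 (0.010) with rapamycin, the latter lost without rapamycin replicate 2 (adjusted p = 0.06) or 3 (0.07). Its footprints fell with Rapalink-1 by 0.40 (0.0021), reduced to -0.13 (adjusted p = 0.3) by library totals. Its paralogue Atg16l2 rose in RNA by 0.93 ± 0.16 (7.9e-06) and fell in efficiency by 0.69 ± 0.28 (0.041), the efficiency call being lost without DMSO replicate 1 (adjusted p = 0.09), DMSO replicate 3 (0.12) or Rapalink-1 replicate 3 (change -0.45, adjusted p = 0.25), and under library totals (-0.32, adjusted p = 0.33). ATG12 itself, encoded by Atg12, was called in no comparison with DMSO.

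The remaining conjugation genes gave smaller or less firm changes. The E2-like Atg10 fell with Rapalink-1 in footprints by 0.66 ± 0.23 (adjusted p = 0.014), lost without Rapalink-1 replicate 1 (adjusted p = 0.08), and in efficiency by 0.68 ± 0.28 (0.047). Leaving out any replicate but DMSO replicate 1 took that adjusted p above the threshold, to between 0.059 and 0.12, and library totals gave -0.31 (adjusted p = 0.35). The E2-like Atg3, with its 2 E-box sites, fell by 0.19 ± 0.068 (0.023) in RNA and 0.21 ± 0.078 (0.022) in footprints. The RNA fall of Atg3 was lost without DMSO replicate 1 (adjusted p = 0.053), DMSO replicate 2 (0.053) or Rapalink-1 replicate 1 (0.14), and the footprint fall without DMSO replicate 3 (0.058) or Rapalink-1 replicate 2 (0.12). Under library totals its footprint change was 0.06. So of the 4 genes with an E-box in the promoter table, Atg14 and Atg7 were called higher and Atg5 and Atg3 lower in RNA with Rapalink-1.

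The proteases of the ATG4 family, which trim and recycle ATG8 proteins, were divided. Atg4c rose with Rapalink-1 by 0.77 ± 0.17 (adjusted p = 0.00020) in footprints and 1.17 ± 0.27 (0.00035) in efficiency. Atg4d fell in RNA by 0.37 ± 0.084 (0.00042), and Atg4b was called in no comparison with DMSO. The locus of Atg4d overlaps that of Kri1 by 1381 bases, and the locus of Atg4a that of Psmd10 by 2867 bases, both on opposite strands. Whether counting used strand is not given, so some reads of these genes may be shared. Atg4a footprints were 15.5, 15.3 and 20.5 CPM with DMSO, 12, 11.1 and 14.4 with Rapalink-1, and 11.4, 12.1 and 13.1 with rapamycin. They fell by 0.45 ± 0.14 (0.0068) and 0.48 ± 0.14 (0.011), and without DMSO replicate 3, the highest, by 0.30 (adjusted p = 0.093) and 0.34 (0.12), with the rapamycin call also lost without rapamycin replicate 1 (0.057). Atg4a-ps, which cannot be separated from Atg4a with confidence, had footprints of 14.9, 14 and 17.7 CPM with DMSO, 10.5, 10.2 and 13.8 with Rapalink-1, and 10.2, 11.2 and 11.8 with rapamycin. Its RNA overlapped between DMSO and rapamycin, at 23.1, 23.9 and 23.2 CPM with DMSO, 22.5, 20.4 and 21.7 with Rapalink-1, and 22.1, 22.8 and 25 with rapamycin. The footprint falls were 0.45 ± 0.14 (0.0084) and 0.50 ± 0.14 (0.011). Both were lost without DMSO replicate 3 (adjusted p = 0.065 and 0.076) or replicate 1 of the drug (0.053 and 0.062). The efficiency of Atg4a-ps fell with rapamycin by 0.49 ± 0.17 (0.042), lost when any replicate except DMSO replicate 2 was left out (adjusted p from 0.084 to 0.16) and with the block by dish, just above the threshold.

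**Figure D3:**
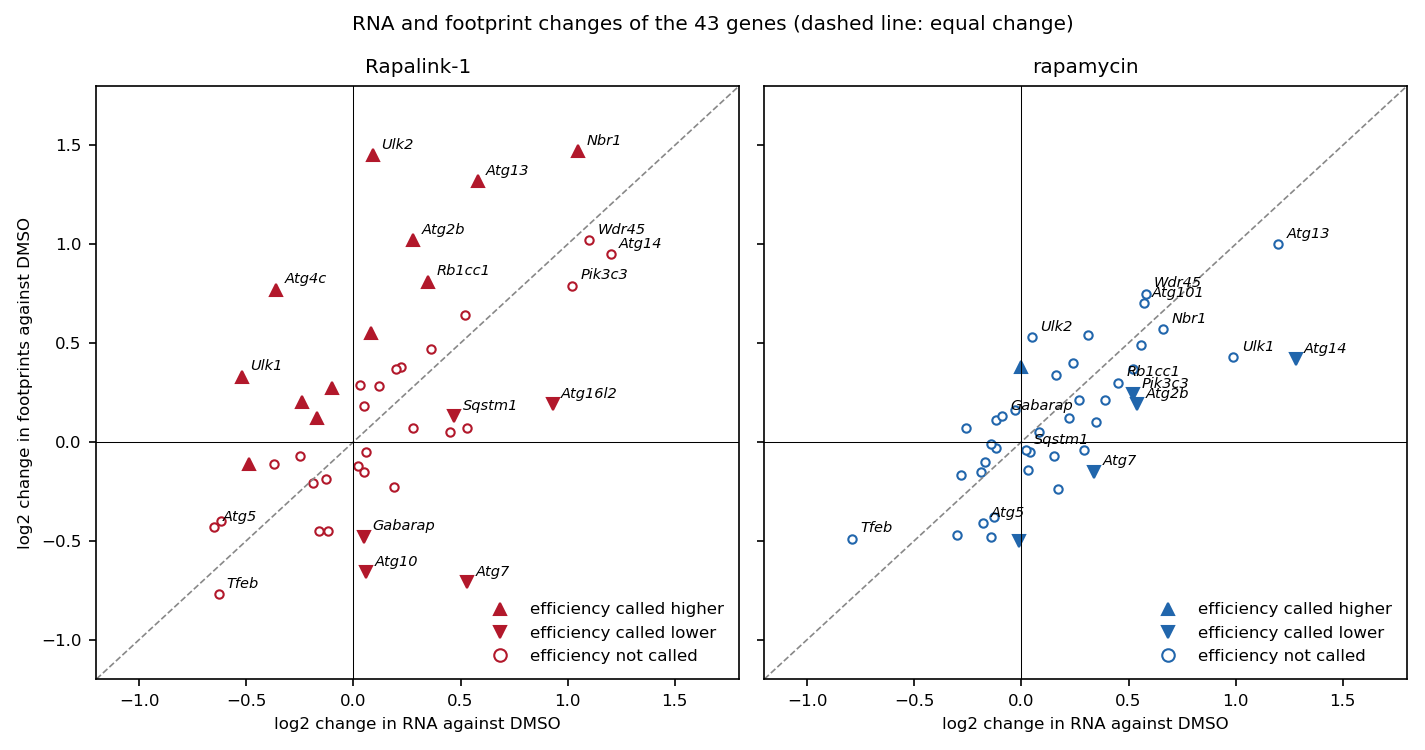
Log2 change in RNA (horizontal) against log2 change in footprints (vertical) for the 43 genes, with Rapalink-1 at left and rapamycin at right, both against the same DMSO libraries. The dashed line marks equal change, and filled triangles pointing up or down mark genes whose efficiency was called higher (12 and 1) or lower (5 and 5). Atg7 lies in the lower right quadrant with Rapalink-1, and Ulk1 in the upper left.

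The ATG8 family did not move as a block. Gabarapl1 rose, Gabarap fell in footprints with Rapalink-1, and the changes of the LC3 genes were small. With Rapalink-1, 1 of 5 rose and 1 fell in footprints (3 and 1 under library totals), and with rapamycin 3 rose. The share called in footprints was 40% against 53.7% of all genes with Rapalink-1, below the background, and 60% against 18.1% with rapamycin. Gabarap RNA was 37.1, 40.4 and 36.8 CPM with DMSO, 35.4, 40.1 and 43.3 with Rapalink-1, and 33.6, 36.5 and 37.8 with rapamycin. Its footprints were 92.7, 99.3 and 100 CPM with DMSO, 69.9, 72.5 and 66 with Rapalink-1, and 103, 112 and 105 with rapamycin. The Rapalink-1 footprints were below all others while the RNA overlapped. They fell by 0.48 ± 0.067 (adjusted p = 8.3e-08), and efficiency fell by 0.49 ± 0.11 (0.00015), a call that ended under library totals (-0.12, adjusted p = 0.32).

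Gabarapl1 RNA was 12.1, 13.4 and 11.7 CPM with DMSO, 17.7, 18 and 18 with Rapalink-1, and 13.5, 16 and 17 with rapamycin. Its footprints were 16.8, 21.9 and 20.7, then 34.2, 27.1 and 29.3, then 27.4, 28.8 and 28.6 CPM, so that both drugs were above DMSO in both assays. RNA rose by 0.52 ± 0.13 (adjusted p = 0.00087) with Rapalink-1, with a change of 0.31 ± 0.13 (0.070) with rapamycin. Footprints rose by 0.64 ± 0.11 (5.8e-06) and 0.54 ± 0.11 (0.00042). Gabarapl2 rose in efficiency with Rapalink-1 by 0.33 ± 0.099 (0.0053).

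Map1lc3b, whose product LC3B is the usual marker of autophagosomes, had RNA of 62.2, 69.5 and 60.2 CPM with DMSO, 78.9, 76.8 and 78.4 with Rapalink-1, and 88.7, 81 and 82.5 with rapamycin. Its footprints were 124, 120 and 130 CPM with DMSO, 131, 136 and 126 with Rapalink-1, and 144, 149 and 140 with rapamycin. RNA was above DMSO with both drugs, and footprints were clear of DMSO with rapamycin only. RNA rose by 0.28 ± 0.065 (adjusted p = 0.00051), reduced to 0.15 (adjusted p = 0.065) by library totals, and by 0.39 ± 0.065 (1.1e-05). Footprints rose by 0.21 ± 0.059 (0.0087) with rapamycin, against a change of 0.07 ± 0.060 (0.31) with Rapalink-1. Map1lc3a footprints rose by 0.34 ± 0.10 (0.016) with rapamycin, a call lost without DMSO replicate 1 (adjusted p = 0.13) or rapamycin replicate 3 (0.093).

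The receptors were led by Nbr1, which had the smallest p of all members in RNA and footprints with Rapalink-1. Nbr1 RNA was 101, 91 and 94.8 CPM with DMSO, 190, 201 and 205 with Rapalink-1, and 151, 143 and 161 with rapamycin. Its footprints were 73.2, 78.1 and 67.3 CPM with DMSO, 208, 197 and 200 with Rapalink-1, and 113, 107 and 103 with rapamycin. The 3 groups were separate in both assays, with rapamycin in the middle. RNA rose by 1.05 ± 0.057 (adjusted p = 1.8e-19) and 0.66 ± 0.058 (4.3e-12), and footprints by 1.47 ± 0.064 (3.7e-22) and 0.57 ± 0.064 (1.5e-08). Efficiency rose by 0.46 ± 0.087 (1.7e-05) with Rapalink-1, with a change of -0.09 with rapamycin.

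Sqstm1 (p62), the other receptor for ubiquitinated cargo, responded in RNA to Rapalink-1 alone. Its RNA was 176, 185 and 160 CPM with DMSO, 248, 234 and 243 with Rapalink-1, and 187, 164 and 177 with rapamycin. Its footprints were 205, 224 and 223 CPM with DMSO, 232, 242 and 237 with Rapalink-1, and 213, 223 and 199 with rapamycin. RNA rose by 0.47 ± 0.054 (adjusted p = 1.6e-09) with Rapalink-1, against a change of 0.02 ± 0.055 (0.88) with rapamycin. The footprint change with Rapalink-1, 0.13 ± 0.057 (0.055), was just outside the threshold. It was called higher under library totals (0.40, adjusted p = 1.6e-07) and in the authors' deposited table (0.13). It also passed narrowly with DESeq2 size factors, a replicate block, only the treatments compared, or without DMSO replicate 3 (adjusted p from 0.035 to 0.046). Efficiency fell by 0.30 ± 0.080 (0.0016). Under library totals that efficiency change was 0.06 (adjusted p = 0.51), so its direction depends on the scaling. Optn, a receptor for mitochondria and bacteria, rose in RNA with Rapalink-1 by 0.53 ± 0.16 (0.0088), lost without Rapalink-1 replicate 2 (adjusted p = 0.057). Tax1bp1 rose in RNA with rapamycin by 0.22 ± 0.050 (0.00099) and in footprints with Rapalink-1 by 0.18 ± 0.057 (0.0071), lost without DMSO replicate 2 (adjusted p = 0.051).

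Tfeb RNA was 7.27, 5.92 and 4.7 CPM with DMSO, 3.63, 4.36 and 3.77 with Rapalink-1, and 3.7, 3.36 and 3.48 with rapamycin. Its footprints were 5.21, 5.89 and 5.46 CPM with DMSO, 3.07, 3.12 and 3.47 with Rapalink-1, and 3.72, 3.99 and 4.02 with rapamycin. All treated libraries were below all DMSO libraries in both assays. RNA fell by 0.63 ± 0.21 (adjusted p = 0.017) with Rapalink-1 and by 0.79 ± 0.22 (0.0063) with rapamycin. The DMSO RNA libraries were spread, and without DMSO replicate 1 the changes were -0.46 (adjusted p = 0.15) and -0.62 (0.083). The Rapalink-1 call was also lost without Rapalink-1 replicate 1 (adjusted p = 0.064). Footprints fell by 0.77 ± 0.23 (0.0050) with Rapalink-1, reduced to -0.50 (adjusted p = 0.059) by library totals. With rapamycin their change was -0.49 ± 0.22 (0.12).

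Tfe3 RNA was 7.45, 6.27 and 7.56 CPM with DMSO, 5.73, 5.5 and 6.56 with Rapalink-1, and 7.81, 7.99 and 7.99 with rapamycin. Its footprints were 14.9, 18.5 and 16.2 CPM with DMSO, 15.5, 15.1 and 15.9 with Rapalink-1, and 13.6, 14 and 14 with rapamycin. Neither drug changed Tfe3 beyond the threshold against DMSO in RNA (adjusted p = 0.28 and 0.52) or footprints (0.65 and 0.19).

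The libraries of the 2 drugs were also compared directly, at the different doses used. Rapalink-1 stood higher than rapamycin for 7 and lower for 13 members in RNA (background 19.6% and 21.5%), for 14 and 7 in footprints (25.4% and 27.6%), and for 15 and 3 in efficiency (26.1% and 23.9%). In either direction 46.5%, 48.8% and 41.9% of members were called, against 41.1%, 53.1% and 50.1% of all genes, so these shares are near the background. Library totals moved the splits to 6 and 20, 21 and 2, and 28 and 2.

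In this direct comparison Ulk1 RNA was lower by -1.51 ± 0.20 (adjusted p = 5.7e-08) and its efficiency higher by 1.45 ± 0.22 (2.5e-07), with a footprint difference of -0.10 ± 0.11 (0.49). Efficiency was also higher with Rapalink-1 for Atg2b (1.14 ± 0.11, 1.2e-12), Atg13 (0.98 ± 0.19, 1.9e-05), Ulk2 (0.91 ± 0.20, 0.00012), Pik3r4 (0.84 ± 0.13, 6.3e-07), Rb1cc1 (0.64 ± 0.095, 1e-07) and Nbr1 (0.55 ± 0.084, 1.6e-07). It was lower for Gabarap (-0.72 ± 0.11, 8.9e-08), Atg7 (-0.72 ± 0.17, 0.00031) and Sqstm1 (-0.25 ± 0.080, 0.0064), and the last turned to 0.07 under library totals and was lost without rapamycin replicate 2 (adjusted p = 0.1). Of the ULK complex 4 of 5 genes were higher in efficiency, Atg101 being the other, with a difference of 0.01 ± 0.12 (0.96) that library totals took to 0.33 (0.014), so that all 5 were then called. Gabarap footprints were lower by -0.62 ± 0.066 (2.3e-10) and Nbr1 footprints higher by 0.91 ± 0.061 (7.7e-16). Sqstm1 RNA was higher by 0.46 ± 0.054 (2.7e-09), Pik3c3 RNA by 0.49 ± 0.067 (6.7e-08) and Nbr1 RNA by 0.39 ± 0.055 (1.9e-07). Tfe3 RNA was lower by -0.42 ± 0.17 (0.044), a call lost when any replicate of Rapalink-1 except replicate 3, or any replicate of rapamycin, was left out (adjusted p from 0.076 to 0.14), by the DESeq2 Wald test (0.085) and with no count filter (0.069).

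**Figure D4:**
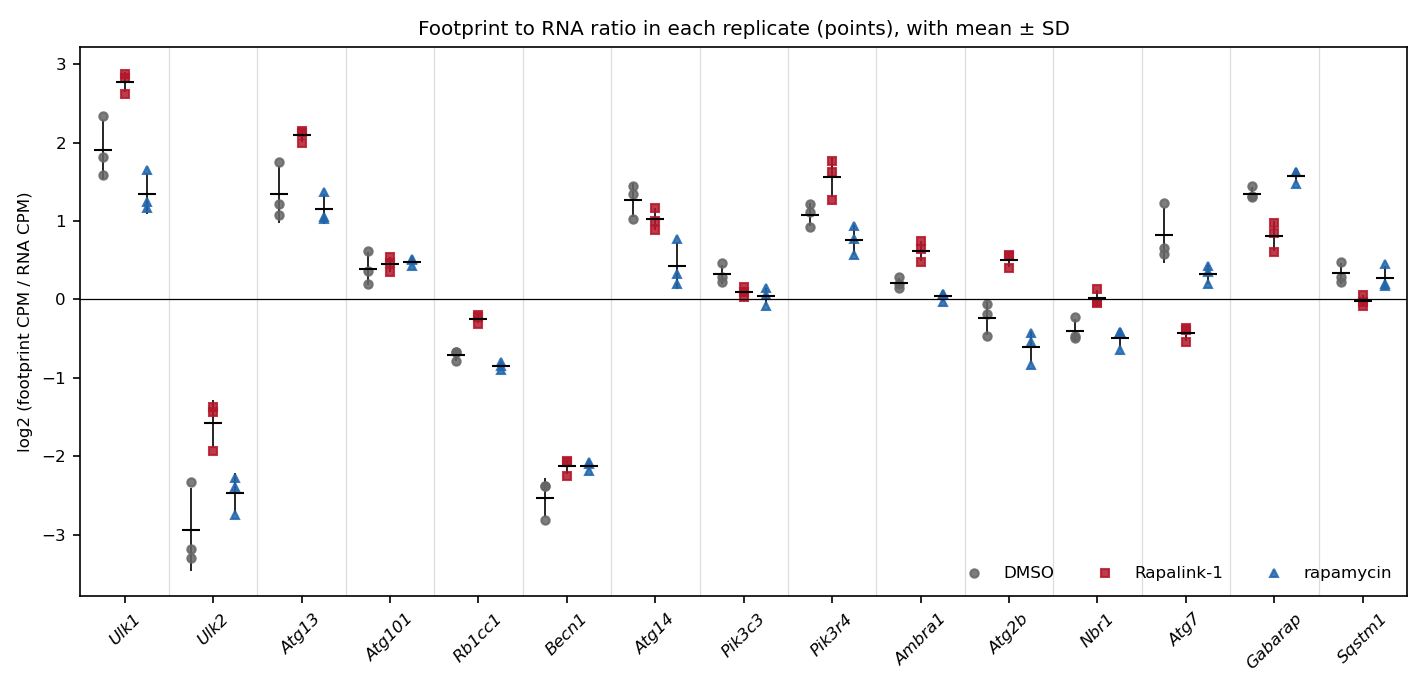
Log2 of footprint CPM over RNA CPM for 15 genes in each replicate (points, from the footprint and RNA libraries of the same number), with the mean ± SD of each group of 3. Ulk2 and Becn1 have the lowest ratios with DMSO, at -2.94 and -2.53, and Ulk1 the highest, at 1.91. Only for Atg7, Gabarap and Sqstm1 among the genes drawn do all Rapalink-1 points lie below all points of both other groups.

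In DMSO cells the members differed widely in this ratio, which compares a gene with itself and so needs no transcript length, although RNA reads outside the coding sequence have no counterpart in footprints. The median of the members was 0.10, and that of all genes 0.01, with 10th and 90th percentiles of -1.18 and 1.23. Ulk2 had a log2 ratio of -2.94 ± 0.53 (SD, n = 3), lower than that of all but 0.465% of genes. Becn1 was at -2.53 ± 0.25, the 0.993 percentile, and Atg4d at -1.64 ± 0.18. The loci of Becn1 and Atg4d overlap other genes, as given above, and reads of those genes may enter these ratios. The other kinase, Ulk1, was at 1.91 ± 0.38, the 95.8 percentile, and Gabarap and Atg13 were at 1.35 ± 0.080 and 1.34 ± 0.36. The 2 ULK kinases thus lay near opposite ends of the distribution, and the efficiency of both rose with Rapalink-1.

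Crossing the calls against DMSO, Rapalink-1 raised 10 members in both RNA and footprints (Atg101, Atg13, Atg14, Atg2b, Gabarapl1, Nbr1, Pik3c3, Rb1cc1, Wdr45 and Wipi2) and lowered 4 in both (Atg16l1, Atg3, Atg5 and Tfeb). A rise called in footprints alone was seen for 7 (Atg2a, Atg4c, Becn1, Pik3r4, Tax1bp1, Ulk1 and Ulk2) and a fall in footprints alone for 5 (Atg10, Atg4a, Atg4a-ps, Gabarap and Vmp1). With rapamycin 11 rose in both (Atg101, Atg13, Atg14, Atg9a, Map1lc3b, Nbr1, Pik3c3, Rb1cc1, Ulk1, Wdr45 and Wipi2), none fell in both, and 22 were called in neither. The share of all genes in these joint classes was not counted, so the joint counts cannot be set against a background. In single assays, 38.2% of all genes were called in RNA and 53.7% in footprints with Rapalink-1, and 24.1% and 18.1% with rapamycin. Vmp1, which works in autophagosome formation at the endoplasmic reticulum, fell in footprints with Rapalink-1 by 0.19 ± 0.066 (adjusted p = 0.013), lost without DMSO replicate 2 (adjusted p = 0.06) or Rapalink-1 replicate 3 (0.093) and 0.08 under library totals. Its locus holds Mir21a and several noncoding genes.

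Genes around the core pathway were counted from lists made by known function. Of 27 accessory autophagy genes tested, Rapalink-1 raised 10 and lowered 6 in RNA and raised 9 and lowered 7 in footprints. Library totals turned the Rapalink-1 splits into 8 and 7 in RNA and 16 and 4 in footprints. Rapamycin raised 7 and lowered 2 in RNA and raised 3 and lowered 1 in footprints. With Rapalink-1 the share called was 59.3% in both assays, against 38.2% of all genes in RNA and 53.7% in footprints. With rapamycin it was 33.3% against 24.1% in RNA and 14.8% against 18.1% in footprints, so the footprint shares were near or below the background. The receptors Calcoco1 and Ccpg1 (an ER-phagy receptor) rose in both assays with both drugs. Calcoco1 footprints rose by 1.5 ± 0.075 (adjusted p = 5.1e-20) with Rapalink-1 and 0.85 ± 0.076 (5.3e-11) with rapamycin, and Ccpg1 footprints by 1.32 ± 0.12 (1.6e-12) and 0.79 ± 0.12 (4.4e-06). Sh3glb1, which binds Becn1 through Uvrag, fell with Rapalink-1 in footprints by 1.08 ± 0.080 (9.3e-15) and in efficiency by 0.95 ± 0.13 (2.8e-07). Wdfy3, a large adaptor for aggregates, rose in efficiency with Rapalink-1 by 0.87 ± 0.13 (2.3e-07) and fell with rapamycin by 0.46 ± 0.13 (0.0080).

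Of 20 upstream regulators tested, 7 rose and 8 fell in footprints with Rapalink-1 (9 and 1 under library totals), and 3 rose and 3 fell with rapamycin. The share called was 75% against 53.7% of all genes with Rapalink-1 and 30% against 18.1% with rapamycin. Foxo3, a transcription factor of autophagy genes, rose in footprints by 1.67 ± 0.093 (adjusted p = 1.9e-18) with Rapalink-1 and by 1.04 ± 0.095 (7.6e-11) with rapamycin. Fnip1, a partner of folliculin in the lysosomal control of TFEB, rose by 1.14 ± 0.081 (2.8e-15) in footprints with Rapalink-1. Rptor, the mTORC1 scaffold, rose in efficiency with Rapalink-1 by 0.68 ± 0.11 (2e-06) and fell with rapamycin by 0.41 ± 0.11 (0.0077).

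Of 28 lysosomal genes known as TFEB targets, Rapalink-1 raised 16 and lowered 1 in RNA (6 and 3 under library totals) with a median change of 0.20. In footprints it raised 4 and lowered 12, which library totals turned into 12 and 5. In efficiency 1 rose and 14 fell with a median of -0.34, which library totals turned into 10 and 4 with a median of 0.03, where the median of all genes was 0.43. The share of the list called with Rapalink-1 was 60.7% against 38.2% of all genes in RNA, 57.1% against 53.7% in footprints, near the background, and 53.6% against 42.2% in efficiency. On either scaling the list's median efficiency change was therefore below that of all genes. Rapamycin raised 4 and lowered 5 in RNA, and raised 4 and lowered 2 in efficiency with a median of 0.11 (32.1% called against 24.1% of all genes, and 21.4% against 16.4%). Lamp1, a major lysosomal membrane protein, fell in footprints by 0.87 ± 0.052 (adjusted p = 2.2e-17) and in efficiency by 0.98 ± 0.070 (2e-17) with Rapalink-1, and rose in efficiency by 0.23 ± 0.070 (0.018) with rapamycin. Psap, the precursor of the saposins, rose in RNA by 0.41 ± 0.059 (3.6e-07) and fell in efficiency by 0.62 ± 0.083 (1.3e-08) with Rapalink-1. The lysosomal channel Mcoln1 fell in efficiency by 0.77 ± 0.14 (6.7e-06).

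In the authors' deposited table of each comparison with DMSO, all calls made here for the 43 genes were also called, in the same direction. With Rapalink-1 the authors' deposited tables called 16 higher and 10 lower in RNA, 20 and 10 in footprints, and 13 and 5 in efficiency. With rapamycin the authors' deposited tables called 15 and 2, 15 and 3, and 1 and 5.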

How the data were processed

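RNA and ribosome footprints of GTML cells were sequenced in 18 libraries, 3 per treatment and assay. Footprints were prepared with the ARTseq kit and total RNA from an aliquot of the same lysate, per the labels' protocols. The authors deposited counts per transcript (mouse build GRCm38, also named mm10, per the submitters' processing notes). The sources used here do not give the aligner, counter or annotation, or whether counting used strand. The authors' comparison tables hold a signal (mean normalized count), a log2 fold change with its SE, a score (test statistic) and p-values, per the file headers. From these tables, calls at an adjusted p under 0.05 were counted.

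Of 27382 transcript rows, 6378 had no reads, and 8528 had the same counts as others in all libraries. Rows with equal counts or of 1 Ensembl gene became 1 feature, and where their counts differed (62 features) the row with most reads was kept, which left 15307 features. The 43 autophagy genes came from 56 rows. edgeR 4.0.16 (R 4.3.3) fitted counts per assay over all 9 libraries with TMM scaling, a minimum count of 10 (filterByExpr, total of 15) and the robust quasi-likelihood test, with Benjamini-Hochberg adjustment over 11271 genes (RNA) and 11281 (footprints). Translational efficiency was the interaction in 1 fit of 18 libraries over 10988 genes. The biological coefficient of variation was 5.72%, 6.38% and 6.05%. Scripts were tested on simulated data. Alternatives were library totals, DESeq2 1.42.0, other filters and fits, a replicate block and leaving out each replicate.

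All members could be named. Values per library were given for the 4 members with the smallest p in each comparison, for Ulk1, Sqstm1, Map1lc3b, Gabarapl1, Tfeb and Tfe3 in any case, and for some others chosen after their values were seen. Up to 4 genes of each other list could be named. Members and lists were chosen with earlier results of these data known.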

Additional observations from a re-analysis of the deposited data

How the results depend on the processing

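Of 164 calls of autophagy genes over the 9 comparisons, 107 kept their call and direction in every alternative run. Scaling by library totals changed most: 28 calls were lost and 55 gained. Efficiency calls went from 17 to 27 for Rapalink-1 against DMSO, from 6 to 2 for rapamycin against DMSO and from 18 to 30 for Rapalink-1 against rapamycin. It also turned 6 called falls into changes above 0 that were not called. For Rapalink-1 against DMSO these were Atg3 footprints (0.06), Vmp1 footprints (0.08) and Sqstm1 efficiency (0.06). For Rapalink-1 against rapamycin they were Map1lc3b footprints (0.08), Vmp1 footprints (0.03) and Sqstm1 efficiency (0.07). Such a shift is built into the scaling, which moves all genes of a library together, and the data hold no spike-in to choose between scalings. The members' median log2 ratio of footprints to RNA with DMSO went from 0.10 to -0.05.

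The 6 efficiency calls for rapamycin were the least firm. They numbered 3 in a fit of only the treatments compared, and 2 to 7 when a replicate was left out (2 without rapamycin replicate 1 or 2, 3 without DMSO replicate 1, 7 without DMSO replicate 3). DESeq2's Wald test lost 5 calls and gained 0 over all comparisons, its size factors lost 1 and gained 3, no filter lost 5 and gained 2, and a fit of only the treatments compared lost 3 and gained 5.

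Across treatments, samples of the same replicate number were not paired by the labels, and their deviations gave correlations of -0.19 to 0.22 between treatments. Between the RNA and footprints of a treatment these were 0.17 to 0.2 for DMSO, where every sample correlated best with its own number, -0.09 to -0.01 for Rapalink-1 and -0.05 to 0.05 for rapamycin. With the replicate block, efficiency calls for Rapalink-1 against DMSO went from 17 to 16 and footprint calls from 27 to 28. Over all comparisons it lost 1 call (Atg10 efficiency, adjusted p = 0.053 by edgeR) and gained 2. RNA came from an aliquot of the lysate used for footprints, per the labels' protocols. A block by dish for efficiency, chosen after seeing the data, took the rapamycin calls from 6 to 4, losing Pik3c3 (adjusted p = 0.056) and Atg4a-ps (just above the threshold). For Rapalink-1 against DMSO it lost Atg10 (0.059) and gained Tax1bp1 (just below the threshold). Ulk1 and Tfeb RNA rest on few reads (means of 4.54 and 5.97 CPM with DMSO), so small changes of these genes were not detectable at this depth. The same limit holds for the RNA of Wipi1, Atg4c, Atg14, Atg13, Atg10, Atg16l2 and Optn, at 4.7 to 6.85 CPM with DMSO. It also holds for the footprints of Ulk2 (4.53 CPM) and Atg16l2 (3.99 CPM), and for efficiency changes that rest on these values.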
